A study of Mus musculus with 14 samples.

Results

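The genes of respiratory complex I were followed in CD4 T cells of a lupus-prone mouse strain. They were taken as every gene of the deposited count table whose symbol begins with Nduf, leaving out names that end in -ps, which gave 45 of 26683 symbols. From what is known of the structure of the complex, 7 are nuclear core subunits, 9 are accessory subunits of the matrix arm, 9 of the proximal and 11 of the distal membrane arm, and 7 are assembly factors. Ndufa4 and Ndufa4l2 carry the name, although Ndufa4 is a subunit of cytochrome c oxidase. The low-count filter passed 44 of the 45, and Ndufa4l2 was left out with 1 count over all 14 libraries.

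RNA was sequenced from splenic cells of female mice aged 8 months, 4 of strain C57BL/6J (B6) and 3 congenic mice (full name B6.NZM-Sle1NZM2410/AegSle2NZM2410/AegSle3NZM2410/Aeg/LmoJ, here called TC). TC mice carry 3 chromosome intervals that predispose to lupus (Sle1, Sle2, Sle3), taken from NZM2410 mice and bred onto B6. None of the 3 intervals was studied alone. A strain difference holds their joint part and that of anything else that differed between the TC and B6 mice or libraries. These cannot be told apart. From each mouse follicular helper T cells (Tfh; CD4+, CD44+, CD162 low or negative, PD-1+) and naive CD4 T cells (Tn; CD4+, CD44-) were sorted, which gave 4 groups, Tfh and Tn of each strain. Neither gate holds a marker that would remove regulatory T cells. Library totals ran from 15162309 to 20191558 counts. Levels are given as normalized CPM, the count scaled by the library size after TMM normalization. All 6 Tfh markers checked (Cxcr5, Bcl6, Pdcd1, Icos, Il21, Tox2) were higher in Tfh and all 5 naive markers given here (Ccr7, Lef1, Tcf7, Klf2, Igfbp4) higher in Tn in both strains.

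Complex I takes electrons from NADH, passes them through a flavin and a chain of iron-sulfur clusters to ubiquinone, and pumps protons across the inner mitochondrial membrane. Its catalytic core lies in the matrix arm and is encoded in the nucleus, while the core of the proton-pumping membrane arm (the mt-Nd genes) is encoded in mitochondrial DNA. Accessory subunits surround this core, and assembly factors help to build the enzyme and are not part of it. Resting naive T cells rely on respiration, and activated T cells combine it with glycolysis. In bulk libraries a lower level can mean less RNA per cell or fewer cells that make it, and these cannot be told apart.

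Per kilobase of transcript, the core subunits described here lay above the assembly factors, and accessory subunits lay above, among and below both. In B6 Tn, Ndufa6 stood highest at 159 normalized CPM per kilobase, followed by Ndufa4 at 137, Ndufa3 at 116 and Ndufa2 at 111. The 6 core subunits lay between 37.2 (Ndufs1) and 50.6 (Ndufs7), and the 7 assembly factors between 3.86 (Ndufaf6) and 11.0 (Ndufaf3), below each of these core subunits. The lowest subunits were Ndufb2 (2.72), Ndufb4 (4.74) and Ndufab1 (6.07). Of these, Ndufb2 and Ndufab1 have annotated transcripts of 4371 and 3479 bases that may be longer than those made in T cells. Ndufb4 is 100% identical over 390 aligned bases to a copy, Ndufb4c, that has no line in the table. How reads that fit both were treated is not given, so the low level of Ndufb4 is uncertain. Neighbours in this order such as Ndufv2 (42) and Ndufv1 (41.9) did not differ beyond their spread over mice. The single count of Ndufa4l2 came from 1 B6 Tfh library, and a level under 3 counts per library cannot be told from 0 at these depths.

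Together the 45 members held 1704, 1979, 1739 and 1777 normalized CPM in the B6 Tfh libraries and 1978, 2037, 2058 and 1898 in B6 Tn. In TC the sums were 1430, 1369 and 1424 in Tfh and 1558, 1495 and 1539 in Tn. Every TC library lay below every B6 library of the same cell type. As a share of all counts, these 45 members took 0.187% ± 0.0122 (SD, n = 4) in B6 Tfh and 0.189% ± 0.00578 (n = 4) in B6 Tn. In TC they took 0.147% ± 0.00403 (n = 3) in Tfh and 0.148% ± 0.00359 (n = 3) in Tn. The mt-Nd genes are not among them.

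The first comparison asked how the lupus-prone strain differed from B6 within each cell type. Complex I genes were lower in TC across nearly all roles, by about the same amount in Tfh and in Tn. In Tfh 34 of 44 members fell and none rose, beside 25.9% of all 13427 genes tested that fell and 24.7% that rose. In Tn 33 of 44 fell and none rose, beside 26.1% and 25.8% of all genes (edgeR quasi-likelihood test, Benjamini-Hochberg adjusted p below 0.05). In 31 of 44 the call was lower in both cell types, beside 19.5% of all genes. The median log2 fold change of the members was −0.38 in Tfh and −0.39 in Tn, where all genes had medians of −0.016 and −0.0075. Leaving Ndufs5 aside, the members called lower fell by 8.83% to 34.8% in Tfh and by 12.1% to 42.7% in Tn.

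**Figure D1:**
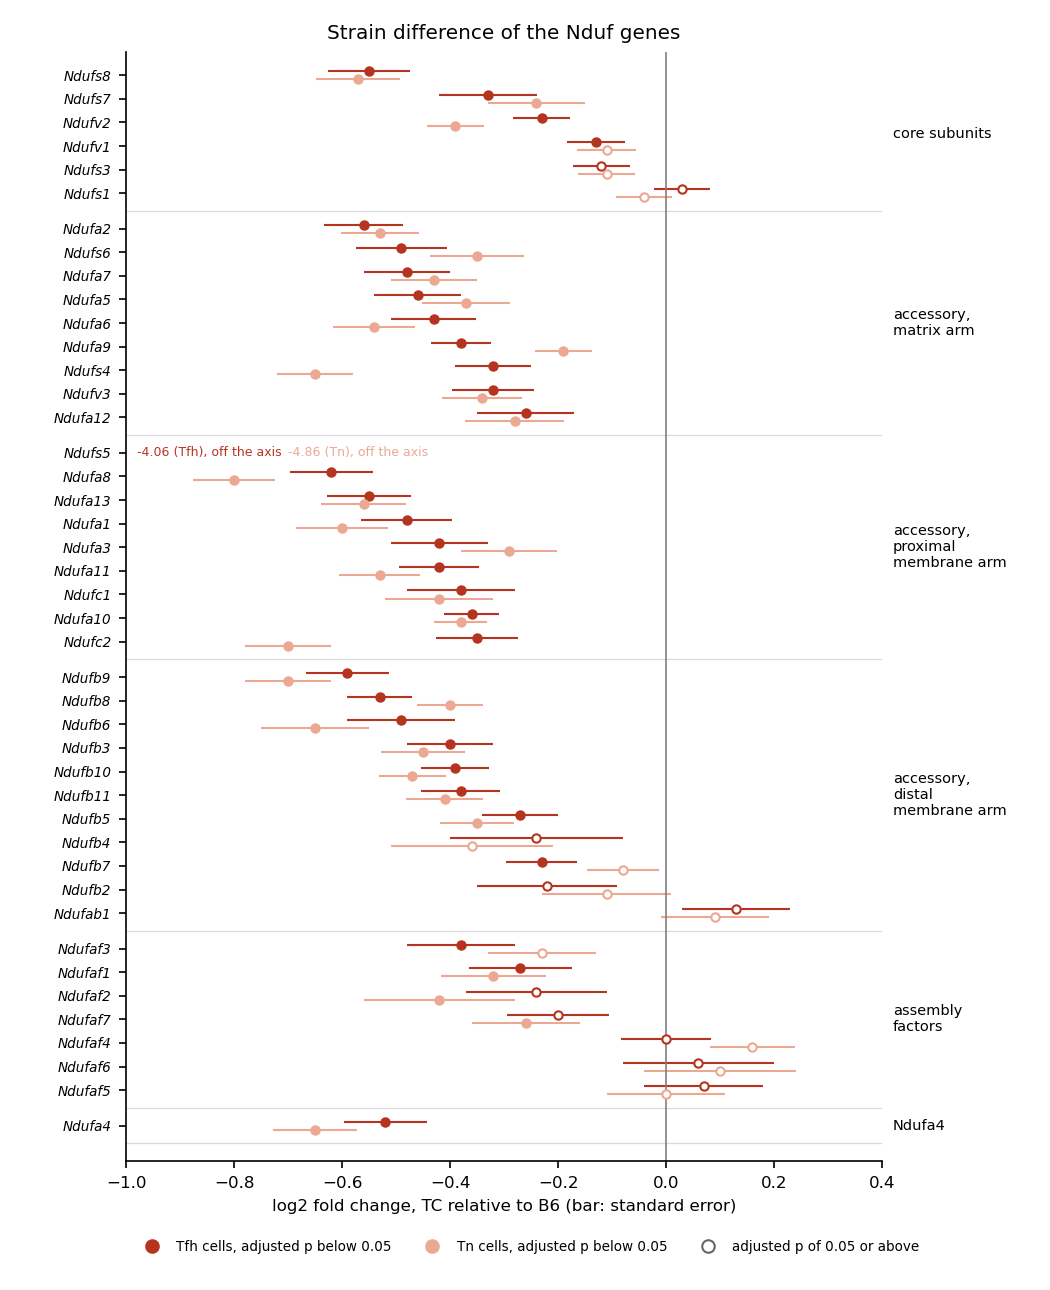
Log2 fold change of TC relative to B6 (x axis) for 43 of the 44 members tested, grouped by role, in Tfh (dark) and Tn (light), with the standard error as a bar and filled points for adjusted p below 0.05. All filled points lie left of 0, and Ndufs5, at −4.06 and −4.86, is off the axis.

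Of the 6 core subunits described here, 4 fell in Tfh and 3 in Tn, beside 25.9% and 26.1% of all genes. With a correction for transcript length only Ndufs8 and Ndufv2 of these 6 fell, in both cell types, beside 25.3% and 25.5% of all genes. Ndufs8, which carries iron-sulfur clusters near the membrane, fell from 46.5 ± 4.45 (SD, n = 4) to 31.7 ± 1.79 (n = 3) in Tfh and from 39.9 ± 1.86 to 26.9 ± 2.09 in Tn. These falls, −0.55 (SE 0.076, adjusted p = 1.96e-05) and −0.57 (SE 0.078, adjusted p = 1.37e-05), were the largest of these 6.

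Not all of the core moved. Ndufs1, the largest core subunit and holder of several iron-sulfur clusters, had 86.2, 82.7, 86.8 and 85.0 normalized CPM in B6 Tfh and 86.1, 90.5 and 84.5 in TC Tfh, with overlap of the strains (log2 fold change 0.03, SE 0.052, adjusted p = 0.645). In Tn it had 109, 96.4, 98.2 and 92.6 in B6 and 98.0, 96.2 and 94.2 in TC (−0.04, SE 0.052, adjusted p = 0.532). Ndufs3, also a core subunit, had 46.1, 48.3, 45.1 and 48.2 in B6 Tfh and 45, 41.7 and 42.6 in TC Tfh, and 48.3, 49.3, 52.4 and 46.7 in B6 Tn and 44.7, 46.4 and 45.4 in TC Tn. It lay lower in TC without overlap in both cell types, but its differences of −0.12 (SE 0.053) and −0.11 (SE 0.053) missed the threshold (adjusted p = 0.0637 and 0.0839), and with a correction for transcript length they were 0.04 and 0.03. Ndufv1 and Ndufv2 form the NADH-oxidizing pair. Ndufv2 went from 68.6, 77.4, 67.1 and 68.0 in B6 Tfh to 57.9, 61.0 and 61.1 in TC Tfh (−0.23, adjusted p = 0.00176) and from 71.2 ± 1.63 (n = 4) to 54.3 ± 0.897 (n = 3) in Tn (−0.39, adjusted p = 1.25e-05). Ndufv1 had 64.3, 69.0, 63.6 and 66.8 in B6 Tfh and 62.7, 56.4 and 61.0 in TC Tfh (−0.13, adjusted p = 0.0473), and −0.11 (adjusted p = 0.098) in Tn. The call on Ndufv1 in Tfh was lost when any one of the 7 Tfh libraries was left out (adjusted p from 0.0676 to 0.323) and by DESeq2 (adjusted p = 0.0574). Ndufs7, which holds the last cluster before ubiquinone, had 41.1, 54.7, 43.7 and 45.9 in B6 Tfh and 38.8, 32.7 and 38.8 in TC Tfh, and 47.2, 54.5, 50.9 and 46.4 in B6 Tn and 44.1, 40.7 and 41.7 in TC Tn. The strains did not overlap in either cell type. It fell by 0.33 on the log2 scale in Tfh (adjusted p = 0.00603) and by 0.24 in Tn (adjusted p = 0.0352). Its call in Tfh was lost without TC Tfh mouse 2 (adjusted p = 0.0502), and its call in Tn without B6 Tn mouse 2 or 3 or TC Tn mouse 2 or 4 (adjusted p from 0.0714 to 0.113).

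All 17 accessory subunits of the matrix arm and proximal membrane arm other than Ndufs5 fell in both cell types, and in each of them no TC library reached the level of any B6 library of its cell type. Over all roles 36 of 44 members lay lower in TC without overlap in Tfh and 36 in Tn, beside 25.9% and 28.1% of all genes. Ndufa8, an intermembrane-space subunit, had 39.7, 42.8, 38.7 and 40.6 normalized CPM in B6 Tfh and 30.4, 24.2 and 24.4 in TC Tfh. In Tn it had 51.7, 51.6, 52.4 and 52.2 in B6 and 32.7, 27.7 and 28.9 in TC. The differences were −0.62 (SE 0.077, adjusted p = 7.83e-06) and −0.80 (SE 0.076, adjusted p = 2.77e-07), in each cell type the greatest after Ndufs5 by the fitted value. Ndufs4, a matrix-arm subunit whose loss causes Leigh-like disease, went from 46.2, 47.6, 47.9 and 42.8 in B6 Tn to 29.1, 30 and 29 in TC Tn, a fall of 0.65 on the log2 scale (SE 0.071, adjusted p = 1.19e-06). In Tfh it had 37.0, 43.5, 36.7 and 37.8 in B6 and 33.0, 28.4 and 31.6 in TC (−0.32, SE 0.070, adjusted p = 0.00116).

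**Figure D2:**
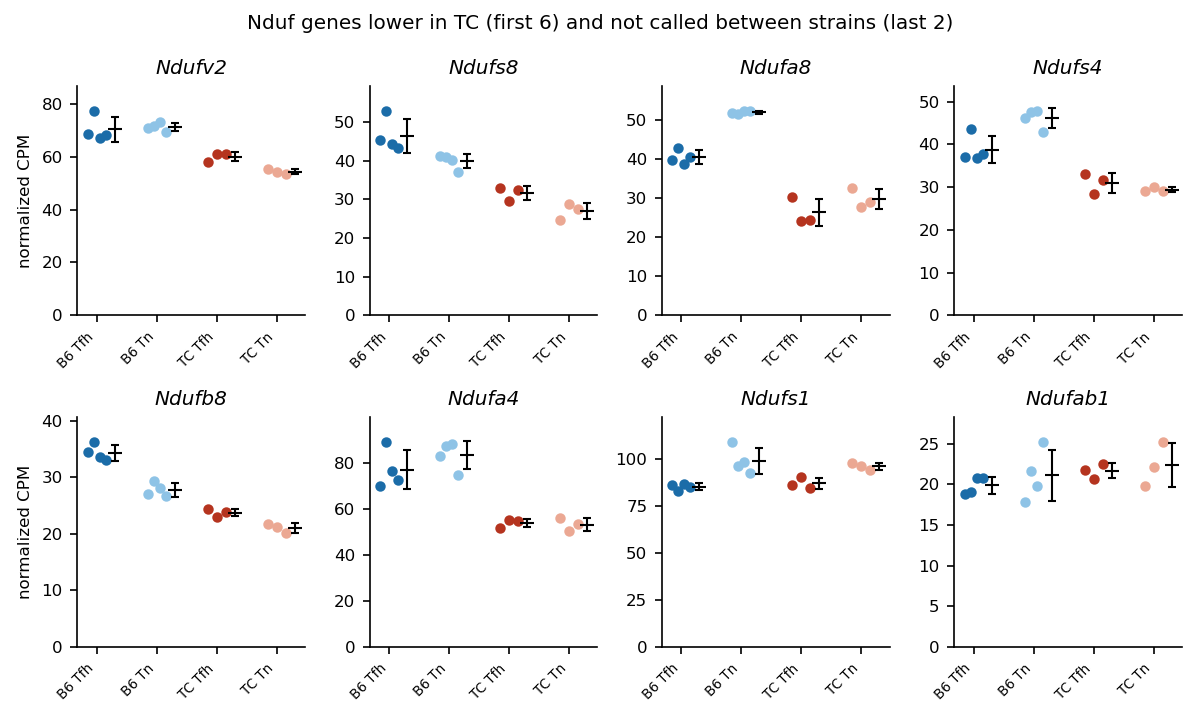
Normalized CPM (y axis, from 0) of 8 members in each library, with the mean and SD of each group beside the points. In the first 6 genes every TC library lies below the B6 libraries of the same cell type, and in Ndufs1 and Ndufab1 the strains overlap.

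In the distal membrane arm 8 of 11 members fell in Tfh and 7 in Tn, beside 25.9% and 26.1% of all genes. Ndufb8, whose protein is lost when the complex fails to assemble, had 34.4, 36.2, 33.5 and 33.0 normalized CPM in B6 Tfh and 24.3, 23.0 and 23.8 in TC Tfh (−0.53, SE 0.060, adjusted p = 2.78e-06). Its Tn values of 27.0, 29.3, 28.0 and 26.6 in B6 and 21.7, 21.2 and 20.1 in TC did not overlap either (−0.40, SE 0.062, adjusted p = 3.76e-05). Ndufab1, the mitochondrial acyl carrier protein, which also serves fatty acid and lipoate synthesis, had a positive difference of 0.13 (SE 0.10, adjusted p = 0.322) in Tfh and 0.09 (SE 0.10, adjusted p = 0.513) in Tn, and its strains overlapped. Ndufb2 and Ndufb4 passed in neither cell type and Ndufb7 passed in Tfh only; whether Ndufb7 differed between the cell types was tested by the interaction (−0.15, SE 0.094, adjusted p = 0.53), which was not called.

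Of the assembly factors, 2 of 7 fell in Tfh (Ndufaf3 and Ndufaf1) and 3 of 7 in Tn (Ndufaf1, Ndufaf2 and Ndufaf7), and none rose. Over all genes 25.9% and 26.1% fell, and with the length correction only Ndufaf3 of these factors passed in Tfh and none in Tn. Ndufaf1, a factor of the early membrane-arm intermediate, fell in both, by 16.9% in Tfh (adjusted p = 0.027) and 19.7% in Tn (adjusted p = 0.0116). Ndufaf4, which joins an early assembly module, had 18.2, 20.5, 17.9 and 20.5 normalized CPM in B6 Tfh and 19.8, 19.3 and 18.6 in TC Tfh, with overlap (adjusted p = 0.976), and 25.5 ± 2.41 (n = 4) against 28.4 ± 1.35 (n = 3) in Tn (0.16, adjusted p = 0.106). Ndufaf5 and Ndufaf6 also passed in neither cell type. The Tn call on Ndufaf2 was lost without TC Tn mouse 1 or 4 (adjusted p from 0.061 to 0.0789). That on Ndufaf7 was lost without B6 Tn mouse 1, 2 or 4 or TC Tn mouse 1 or 4 (adjusted p from 0.0615 to 0.199) and without the filter on low counts (adjusted p = 0.0701). These factors have few counts and standard errors of 0.079 to 0.14, so falls as small as those of Ndufv1 would not have been resolved in them. Ndufa4, of cytochrome c oxidase, fell with the rest: 69.9, 89.0, 76.4 and 72.6 in B6 Tfh against 51.6, 55.0 and 54.8 in TC Tfh (−0.52, adjusted p = 4.4e-05), and 83.3 ± 6.19 (n = 4) against 53.1 ± 2.73 (n = 3) in Tn (−0.65, adjusted p = 3.23e-06).

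Across the 43 members other than Ndufs5 the strain differences of the 2 cell types had r = 0.848 and rho = 0.786, where both come from the same mice and the same gene lengths. The 11 members on chromosomes 1, 4 and 7, which hold the Sle intervals, had median strain differences of −0.36 in Tfh and −0.38 in Tn, and the other 33 members had −0.38 and −0.39. Of the 11, 7 were lower in both cell types, and of the other 33, 24 were, beside 19.5% of all genes. The ends of the intervals were not given in the sources used here, so each of the 11 may lie inside or outside them.

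Most genes of the lists outside complex I given next moved the same way. Of 41 nuclear genes of complexes II to V, 40 fell in TC in Tfh and 39 in Tn, with medians of −0.45 and −0.46. Of 83 cytosolic ribosomal protein genes, 78 fell in Tfh and 79 in Tn (medians −0.48 and −0.49). Of 76 mitochondrial ribosomal protein genes 54 and 52 fell (medians −0.33 and −0.32). In complexes II to V 0 rose in Tfh and 1 in Tn (Atp5l). In each cell type 1 cytosolic ribosomal protein gene rose, and 5 mitochondrial ones rose in Tfh and 6 in Tn. Over all genes 25.9% fell and 24.7% rose in Tfh, and 26.1% fell and 25.8% rose in Tn. The median transcript length was 994 bases in the tested members, 865 in complexes II to V (39 of 41 have a length), 878 in the cytosolic and 1302 in the mitochondrial ribosomal protein genes, beside 2819 over the genes tested that have a length. Across the 43 members other than Ndufs5 the strain difference was less negative for longer transcripts (r = 0.615 in Tfh and 0.573 in Tn against log2 length). Both r and the correction use annotated lengths, which for Ndufb2 and Ndufab1 may exceed those made in T cells. With a correction for transcript length in each library, 27 members fell in each cell type and none rose, beside 25.3% and 25.5% of all genes that fell and 22.8% and 25.1% that rose, and the medians were −0.24 and −0.27. The correction ended the calls on Ndufa12, Ndufaf1, Ndufb5, Ndufb7, Ndufc1, Ndufs7 and Ndufv1 in Tfh and on Ndufa12, Ndufa9, Ndufaf1, Ndufaf2, Ndufaf7 and Ndufs7 in Tn. The part of RNA quality or library preparation in this length relation was not tested.

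Ndufs5, an accessory subunit in the intermembrane space (chr4:123712710-123718202, minus strand, GRCm38), had by far the widest strain difference, and its counts cannot be read as expression. It had 123, 128, 130 and 104 counts in B6 Tfh and 6, 5 and 8 in TC Tfh, and 126, 119, 135 and 116 in B6 Tn against 3, 5 and 4 in TC Tn. Its log2 fold changes were −4.06 (SE 0.22, adjusted p = 5.31e-10) in Tfh and −4.86 (SE 0.24, adjusted p = 1.16e-10) in Tn. The processed pseudogene BC002163 (chr16:42955631-42955949) is 99.4% identical to the Ndufs5 transcript over 319 aligned bases, and it went the opposite way: 4, 6, 4 and 5 counts in B6 Tfh and 8, 1, 7 and 2 in B6 Tn, against 91, 75 and 100 in TC Tfh and 111, 87 and 98 in TC Tn. The 2 sequences differ at T81C and A105G (the Ndufs5 base, its position counted from the A of the start codon, then the base of the copy). They are shown here over positions 36 to 150, with these bases in capitals, because a read that lies within the 319 aligned bases (46.9% of the Ndufs5 transcript) and covers neither base matches both genes equally:
Ndufs5: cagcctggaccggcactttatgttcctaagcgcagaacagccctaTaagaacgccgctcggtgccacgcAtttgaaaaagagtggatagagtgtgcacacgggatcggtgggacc
BC002163: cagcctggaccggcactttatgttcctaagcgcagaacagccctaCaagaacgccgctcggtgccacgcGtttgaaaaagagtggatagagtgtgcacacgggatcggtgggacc

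Summed over both genes the counts were 109 to 142 in the 8 B6 libraries and 80 to 114 in the 6 TC libraries. Fitted as 1 gene, the strain difference was −0.23 (SE 0.12, adjusted p = 0.114) in Tfh and −0.27 (SE 0.12, adjusted p = 0.0651) in Tn, neither of which passed. Ndufs5 held 94.0% to 99.2% of the summed counts in each B6 library and 2.63% to 7.41% in each TC library. The mapping of reads that fit both genes is not given in the sources used here, and the sequence of Ndufs5 in TC mice was not analysed here. With the pair summed, 33 and 32 members fell in Tfh and Tn, 1 fewer in each cell type than with Ndufs5 alone. Near-identical copies of Ndufa12, Ndufab1, Ndufb11 and Ndufs3 that have a line in the table had at most 4 counts in any library. Copies of Ndufb4 (Ndufb4c), Ndufs6 (Ndufs6b) and Ndufab1 (Ndufab1-ps) have no line there, so their share of the reads cannot be seen.

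**Figure D3:**
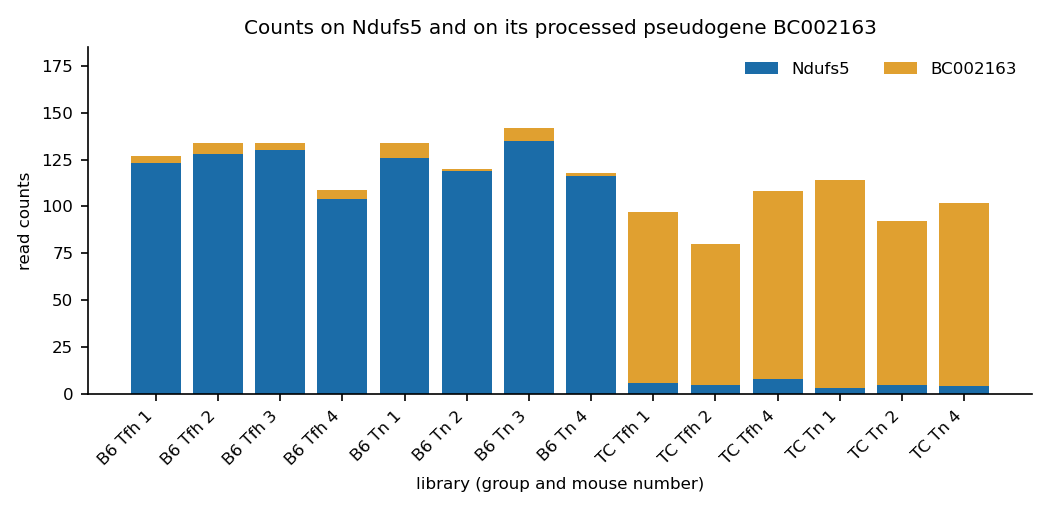
Read counts (y axis, from 0) on Ndufs5 and, stacked above it, on BC002163 in each of the 14 libraries, named by group and mouse number. Ndufs5 makes up nearly the whole bar in B6 and BC002163 nearly the whole bar in TC, while the heights of the bars differ much less.

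The second comparison set Tfh against Tn from the same spleens, the change from the naive to the follicular helper state. Complex I showed no common direction. In B6, 16 of 44 members were lower in Tfh and 4 higher, beside 33.4% of all genes that fell and 37.1% that rose, and in TC 12 were lower and 7 higher, beside 32.4% and 33.8%. The members' median was −0.098 in B6 and −0.04 in TC, and that of all genes 0.018 and −0.0088. The split by direction turned with the correction for transcript length. Without it the difference had only a weak relation to log2 length across the 43 members other than Ndufs5 (r = −0.194 in B6 and −0.252 in TC). With the length correction 18 members rose and 8 fell in B6 (beside 37.4% and 34.7% of all genes) and 18 rose and 7 fell in TC (beside 34.4% and 34.7%), and the medians turned to 0.12 and 0.14. The members called lower in both fits were 8 in B6 and 7 in TC, those called higher in both were 4 and 7, and none was lower in one fit and higher in the other.

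**Figure D4:**
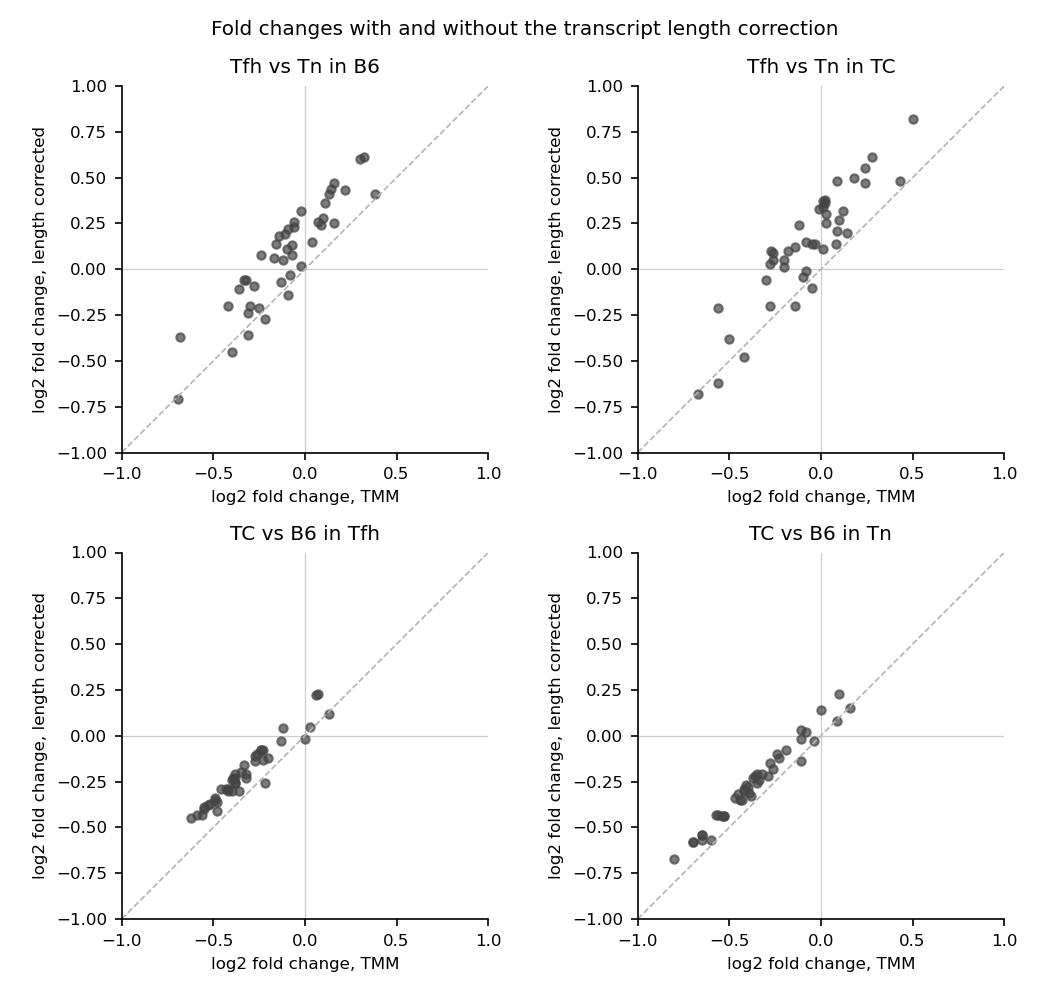
Log2 fold change of the 43 members other than Ndufs5 without (x axis) and with (y axis) the transcript length correction in 4 comparisons, where the dashed line marks equal values. Most points lie above the line, which carries many Tfh to Tn differences from below to above 0 and leaves most strain differences below 0.

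A few members stood apart from this in both strains. Ndufa10, a kinase-like subunit of the proximal membrane arm, had 58.1, 65.1, 61.3 and 61.0 normalized CPM in B6 Tfh and 99.4, 98.1, 100 and 98.5 in B6 Tn. In TC it had 45.5, 49.7 and 48.4 in Tfh and 79.0, 72.8 and 76.6 in Tn. It fell in Tfh by 38.1% in B6 (log2 fold change −0.69, SE 0.045, adjusted p = 2.47e-10) and by 37.2% in TC (−0.67, SE 0.054, adjusted p = 5.74e-09), and with the length correction by 0.71 and 0.68 on the log2 scale. Ndufa6, a LYR-motif subunit that binds the acyl carrier protein, fell from 91.5, 98.3, 102 and 83.6 in B6 Tn to 54.0, 64.4, 60.1 and 56.3 in B6 Tfh, and from 71.0, 60.2 and 61.7 in TC Tn to 45.7, 42.7 and 42.4 in TC Tfh. Its log2 fold changes of −0.68 (SE 0.070, adjusted p = 1.19e-07) and −0.56 (SE 0.084, adjusted p = 1.41e-05) shrank to −0.37 and −0.21 with the length correction and stayed past the threshold (adjusted p = 1.12e-05 and 0.00889).

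Ndufa9, a matrix subunit at the junction of the arms, had 51.0, 57.9, 54.8 and 53.8 in B6 Tfh and 62.7, 68.4, 69.0 and 68.0 in B6 Tn, and 40.5, 42.3 and 42.3 in TC Tfh against 58.5, 57.2 and 61.0 in TC Tn. The cell types did not overlap in either strain (−0.30, adjusted p = 2.78e-05 in B6 and −0.50, adjusted p = 6.96e-07 in TC). The assembly factor Ndufaf4 was the only one of the 7 to fall in Tfh, from 22.1, 27.2, 25.3 and 27.3 in B6 Tn to 18.2, 20.5, 17.9 and 20.5 (−0.40, adjusted p = 0.000124) and from 29.6, 28.7 and 26.9 in TC Tn to 19.8, 19.3 and 18.6 (−0.56, adjusted p = 2.04e-05). Ndufb10, of the distal arm, fell from 69.0 ± 3.30 (n = 4) to 54.8 ± 4.36 in B6 (−0.33, adjusted p = 3.97e-05) and from 49.8 ± 0.985 (n = 3) to 41.7 ± 1.43 in TC (−0.26, adjusted p = 0.00277). The length correction ended the calls on Ndufb10, with −0.06 (adjusted p = 0.266) in B6 and 0.05 (adjusted p = 0.362) in TC.

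**Figure D5:**
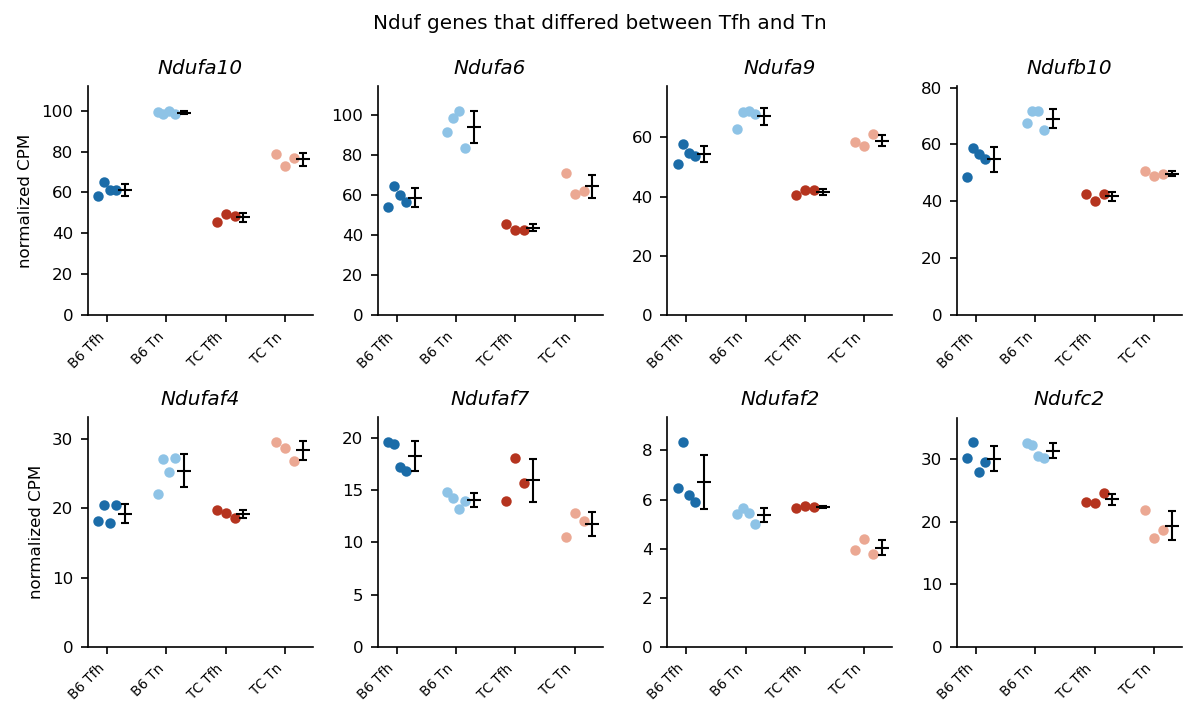
Normalized CPM (y axis, from 0) of 8 members in each library, with the mean and SD of each group beside the points. Ndufa10, Ndufa6, Ndufa9, Ndufb10 and Ndufaf4 lie lower in Tfh than in Tn of the same strain, Ndufaf7 and Ndufaf2 higher, and Ndufc2 is higher in TC Tfh and overlaps in B6.

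Without the length correction fewer members were higher in Tfh than lower, and with it more were. Ndufaf7, a methyltransferase that acts during assembly of the complex, had 19.6, 19.4, 17.2 and 16.8 in B6 Tfh against 14.8, 14.2, 13.2 and 14 in B6 Tn, and 14, 18.1 and 15.7 in TC Tfh against 10.5, 12.8 and 12 in TC Tn. It rose by 29.9% in B6 (0.38, SE 0.088, adjusted p = 0.00102) and 35.2% in TC (0.43, SE 0.11, adjusted p = 0.00189), and with the length correction by 0.41 and 0.48 on the log2 scale. Ndufaf2, a late assembly factor, had 6.48, 8.34, 6.17 and 5.88 in B6 Tfh and 5.42, 5.67, 5.44 and 5 in B6 Tn, and 5.65, 5.75 and 5.70 in TC Tfh against 3.95, 4.39 and 3.79 in TC Tn. It rose by 0.32 in B6 (adjusted p = 0.0211) and by 0.50 in TC (adjusted p = 0.00775), and the call in B6 was lost without B6 Tfh mouse 2 or without B6 Tn mouse 4 (adjusted p from 0.058 to 0.0694). With the length correction its rises were 0.61 and 0.82.

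Ndufs8 rose in Tfh, from 41.3, 40.9, 40.3 and 37.2 in B6 Tn to 45.5, 53.0, 44.3 and 43.2 in B6 Tfh (0.22, adjusted p = 0.00792) and from 24.7, 28.7 and 27.4 in TC Tn to 32.9, 29.6 and 32.5 in TC Tfh (0.24, adjusted p = 0.0199). Ndufb8 rose by 23.5% in B6 (0.30, adjusted p = 7e-05) and by 13.0% in TC (0.18, adjusted p = 0.0269). With the length correction the log2 fold changes were 0.43 and 0.47 for Ndufs8 and 0.60 and 0.50 for Ndufb8. In the rest of the core, Ndufs1 fell by 14% in B6 (adjusted p = 0.000632) and fell by 9.51% in TC (adjusted p = 0.0308), and Ndufv2 rose by 10.5% in TC (adjusted p = 0.0346) and had −0.02 (adjusted p = 0.737) in B6. Ndufs3, Ndufs7 and Ndufv1 passed in neither strain, although with the mouse as a block Ndufs7 passed as lower in TC (−0.20, adjusted p = 0.0134), and with the length correction Ndufs3 passed as higher in both strains (0.13 and 0.15, adjusted p = 0.011 and 0.0173). In TC the call on Ndufs8 was lost without TC Tn mouse 1 (adjusted p = 0.109), that on Ndufb8 without TC Tn mouse 4 (adjusted p = 0.104), and that on Ndufv2 without TC Tn mouse 1, 2 or 4 (adjusted p from 0.0519 to 0.0948). All 3 were also lost without the filter on low counts (adjusted p = 0.0636, 0.181 and 0.234). The call on Ndufs1 in TC was lost without TC Tfh mouse 1 or 4 or TC Tn mouse 1 or 2 (adjusted p from 0.0605 to 0.191) and by DESeq2 (adjusted p = 0.0501).

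Promoters of the 4 members with the widest called falls in Tfh in TC, all of which also fell in B6, are shown so that the sequence of genes that moved together can be compared (RefSeq, GRCm38.p6, the 250 bases before the transcription start, 5′ to 3′ on the gene's strand). They are those of Ndufa10 (chr1:92473759-92474008), Ndufa6 (chr15:82354292-82354541), Ndufa9 (chr6:126849145-126849394) and Ndufaf4 (chr4:24897833-24898082). Capitals mark TGCGCA, the core of the site of nuclear respiratory factor 1 (NRF1), a known activator of respiratory chain genes:
Ndufa10: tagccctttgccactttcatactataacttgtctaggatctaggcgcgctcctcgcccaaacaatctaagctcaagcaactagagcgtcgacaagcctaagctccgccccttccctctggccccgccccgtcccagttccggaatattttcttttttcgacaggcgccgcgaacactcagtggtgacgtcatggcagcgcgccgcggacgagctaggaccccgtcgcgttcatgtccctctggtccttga
Ndufa6: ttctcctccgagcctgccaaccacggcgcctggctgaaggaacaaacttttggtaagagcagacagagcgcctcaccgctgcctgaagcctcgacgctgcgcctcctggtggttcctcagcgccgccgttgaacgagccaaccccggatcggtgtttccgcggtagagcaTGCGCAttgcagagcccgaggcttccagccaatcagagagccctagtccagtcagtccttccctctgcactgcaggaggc
Ndufa9: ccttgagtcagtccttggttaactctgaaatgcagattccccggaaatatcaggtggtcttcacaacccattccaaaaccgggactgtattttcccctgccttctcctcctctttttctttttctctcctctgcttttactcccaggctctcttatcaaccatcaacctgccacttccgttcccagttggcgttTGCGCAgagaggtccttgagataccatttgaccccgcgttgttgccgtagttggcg
Ndufaf4: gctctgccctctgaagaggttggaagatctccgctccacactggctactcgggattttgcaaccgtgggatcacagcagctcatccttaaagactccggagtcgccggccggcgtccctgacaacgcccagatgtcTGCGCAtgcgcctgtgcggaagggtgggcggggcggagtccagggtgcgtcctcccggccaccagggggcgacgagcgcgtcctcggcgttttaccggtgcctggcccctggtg

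TGCGCA, which reads the same on both strands, lay in this window in 8 of the 39 members that have a promoter in the table (20.5%), beside 6.66% of 27025 promoters. Besides the 3 shown these were Ndufa5, Ndufb4, Ndufb6, Ndufs5 and Ndufs6, of which Ndufa5, Ndufb6, Ndufs5 and Ndufs6 did not pass between Tfh and Tn in either strain. CCGGAAG, an ETS factor core searched on both strands, lay in 4 of 39 (10.3%, beside 7.05% of all), in Ndufaf1, Ndufb6, Ndufb7 and Ndufs3. AAGATGGCG, a core of the YY1 site searched on both strands, lay in none of the 39 windows and in 0.607% of all, and these windows stop at the start site. The 27025 promoters were not limited to genes tested here, so the shares over them and over the members are not like for like. A match of letters is not a site in use.

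The third comparison asked whether the step from Tn to Tfh differed between the strains, by the interaction of strain and cell type. No member passed (0 of 44, beside 2.1% of all genes), by edgeR or by DESeq2. An unadjusted p below 0.05 was seen in 4 members: Ndufa9, Ndufc2, Ndufs4 and Ndufv2. The share of all genes below that looser cut is not given here, so the count of 4 is not read as a result. Ndufs4 fell from Tn to Tfh in B6 (−0.25, adjusted p = 0.00178) and had 0.08 (adjusted p = 0.365) in TC, an interaction of 0.33 (SE 0.099, adjusted p = 0.105). With the mouse as a block it passed (0.33, adjusted p = 0.0482), as 1 of 44 members beside 5.3% of all genes. Ndufc2, a small membrane subunit, had 30.2, 32.7, 27.9 and 29.5 in B6 Tfh and 32.5, 32.3, 30.4 and 30.2 in B6 Tn, with overlap, and 23.1, 23.0 and 24.5 in TC Tfh against 21.9, 17.4 and 18.7 in TC Tn, without it. It rose in TC by 21.7% (adjusted p = 0.00756), and its interaction of 0.34 (SE 0.11) had an adjusted p of 0.134, or 0.0564 with the mouse block. With the length correction both passed (adjusted p = 0.038 for Ndufs4 and 0.0476 for Ndufc2), 2 of 44 beside 2.89% of all genes. The members share TC and B6 libraries between the comparisons, so their Tfh to Tn and strain differences are not separate evidence of each other.

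The mitochondrially encoded core subunits that were tested fell in TC in Tn, and most of them did not pass in Tfh. mt-Nd3 had at most 1 count in any library and was not tested. Another mitochondrial gene, mt-Co3, had 0 counts in every group, and the cause of such low counts was not tested. Of the 5 mt-Nd genes tested (mt-Nd1, mt-Nd2, mt-Nd4, mt-Nd5 and mt-Nd6), none rose and 2 fell in TC Tfh, and all 5 fell in TC Tn. Over all genes 25.9% and 26.1% fell. With the length correction 1 of the 5 fell in TC Tfh and 5 fell in TC Tn, beside 25.3% and 25.5% of all genes. The medians of the 5 were then 0.0023 and −0.51. mt-Nd1, a membrane core subunit at the ubiquinone channel, had 2097, 2415, 2183 and 2380 normalized CPM in B6 Tfh and 2020, 2638, 2767 and 2661 in B6 Tn, with overlap (−0.15, adjusted p = 0.114). In TC it had 1959, 1879 and 1826 in Tfh and 1508, 1482 and 1378 in Tn, all Tfh above all Tn (0.37, adjusted p = 0.00248), and its interaction was 0.53 (SE 0.13, adjusted p = 0.0411). mt-Nd6, encoded on the opposite DNA strand to the rest, had 6.28, 9.04, 8.31 and 9.68 normalized CPM in B6 Tfh and 4.06, 2.46 and 3.60 in TC Tfh, without overlap, and the widest strain differences of the 5 (−1.29, SE 0.25, adjusted p = 0.000457 in Tfh and −1.43, SE 0.26, adjusted p = 0.000247 in Tn). Whether counting used the strand is not given in the sources used here. mt-Nd5 had a strain difference of 0.00 (SE 0.082, adjusted p = 0.997) in Tfh and −0.26 (SE 0.083, adjusted p = 0.0136) in Tn. B6 Tn mouse 1 had the lowest mt-Nd sum of its group, 6806 beside 9036 to 9759.

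Among the other genes that build or regulate the complex, 13 assembly factors without the Nduf name in the table were tested. In TC 9 fell and 2 rose in Tfh (beside 25.9% and 24.7% of all genes), and 6 fell and 1 rose in Tn (beside 26.1% and 25.8%). Nubpl, which delivers iron-sulfur clusters to complex I, had −0.93 (SE 0.20, adjusted p = 0.000877) in Tfh and −1.03 (SE 0.18, adjusted p = 0.000107) in Tn, wider than any Nduf member other than Ndufs5. Atp5sl (Dmac2), a distal-arm assembly factor, rose by 22.9% in Tfh (adjusted p = 0.000965) and 26.8% in Tn (adjusted p = 0.000226). Of these 13, 8 fell and 2 rose from Tn to Tfh in B6 (beside 33.4% and 37.1% of all genes), and 5 fell and 2 rose in TC (beside 32.4% and 33.8%). Acad9, an acyl-CoA dehydrogenase that also serves complex I assembly, rose by 19.8% in B6 (adjusted p = 0.000293) and 37.0% in TC (adjusted p = 4.43e-06).

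Of 14 genes of mitochondrial biogenesis, 2 rose and 2 fell in TC Tfh (beside 24.7% and 25.9% of all genes), and 5 rose and 2 fell in TC Tn (beside 25.8% and 26.1%). Ppargc1b, a coactivator of respiratory genes, rose in TC by 0.81 (SE 0.11, adjusted p = 2.23e-05) in Tfh and by 0.96 (SE 0.11, adjusted p = 2.55e-06) in Tn on the log2 scale. Tfam, which packages and transcribes mitochondrial DNA, fell in TC by 19.6% (adjusted p = 8.47e-05) and 19.2% (adjusted p = 6.79e-05). From Tn to Tfh 7 of the 14 fell in each strain and 1 rose, beside 33.4% (B6) and 32.4% (TC) of all genes that fell and 37.1% and 33.8% that rose. Pprc1, a coactivator related to Ppargc1b, fell by 44.9% in B6 (adjusted p = 2.3e-11) and by 45% in TC (adjusted p = 2.48e-10).

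Markers of other cells also moved with the cell type comparison, in which 37.1% of all genes were higher in Tfh in B6 and 33.8% in TC. Of 9 B cell markers 6 were tested and 5 were higher in Tfh in each strain, and their summed level was 1830 to 2148 normalized CPM in B6 Tfh, 594 to 621 in B6 Tn, 1608 to 2350 in TC Tfh and 671 to 728 in TC Tn, with no marker at 0 in any group. All 5 regulatory T cell markers were higher in Tfh in both strains, with sums of 1747 to 2145 in B6 Tfh, 89.7 to 132 in B6 Tn, 2363 to 2818 in TC Tfh and 88.0 to 127 in TC Tn, and none at 0. All 4 cycling markers were higher in Tfh in B6 and 3 in TC, with sums of 71.0 to 98.0 and 70.5 to 81.2 in Tfh of B6 and TC. Of 5 plasma cell markers 4 were tested, and 4 rose in Tfh in B6 and 3 in TC (sums of 132 to 155 and 117 to 140 in Tfh and 64.8 to 68.8 and 53.5 to 66.5 in Tn of B6 and TC). Between the strains, of the 3 of 6 myeloid markers tested 2 fell in TC Tfh (sums of 8.89 to 16.4 in B6 Tfh and 3.87 to 6.91 in TC Tfh), and 2 fell and 1 rose in TC Tn. Of the plasma cell markers 2 fell in TC Tfh and 1 in TC Tn, and so did 2 and 1 of the cycling markers. Cd8b1, of CD8 T cells, fell in TC Tn, and the 1 erythroid marker tested fell in both cell types. Of the naive markers given above, Igfbp4, Ccr7 and Lef1 fell in TC Tn, and in TC Tfh Igfbp4 rose and Ccr7 fell. Among the 6 Tfh markers, Il21 and Bcl6 rose and Cxcr5 and Pdcd1 fell in TC Tfh, and Cxcr5 fell in TC Tn. Out of 3 CD4 T cell markers, Cd4 fell in TC Tfh, and Trac and Cd3e fell in TC Tn. Of the other lists, 1 B cell marker rose and 2 fell in TC Tfh and 1 fell in TC Tn, 2 regulatory T cell markers rose in TC Tfh, and 1 regulatory T cell marker rose and 2 fell in TC Tn. Beside these strain counts, 24.7% of all genes rose and 25.9% fell in TC Tfh, and 25.8% rose and 26.1% fell in TC Tn. The part of other cells, or of these marker differences, in the differences of complex I genes was not tested.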

How the data were processed

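The deposited table holds raw read counts, made by the authors, a column for each library and a line for each symbol. STAR 2.7 and mm10 were used for alignment, per the submitters' processing notes, and a stranded kit for the libraries, per the labels' protocols. How reads were counted, on which strand, and how those that fit several genes were treated was not given in the sources used here, so values of overlapping genes and near-identical copies are uncertain. The protocol speaks of WT and KO mice; the strain labels and titles were followed. Sequencing batch is not in the labels, and 0 columns were left unused.

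Genes passing filterByExpr at a count minimum of 10 (13427) were scaled by TMM and tested with edgeR 4.0.16 in R 4.3.3, by its robust quasi-likelihood fit with 4 group means and without a block, and p-values were Benjamini-Hochberg adjusted over all of them. The fit was tested on simulated data. The members and gene lists were chosen with earlier results of these data known, so no list was tested as a set. Values in every library, or group means with SD, are given for up to 4 members each way with the smallest adjusted p in each comparison, the core subunits and Ndufa4. A core subunit and a naive marker are not reported here, though counts over all members include the former. Positions and transcript lengths (principal transcripts) came from GENCODE M21, matched by symbol. Motifs and promoters came from RefSeq.

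Both libraries of a number in a strain came from 1 mouse, per the labels' protocols, so the numbers pair them. Deviations of the paired libraries from their group means correlated at 0.0395 to 0.299 (lowest in B6 mouse 3). No 2 libraries of a group were as alike as duplicates (chi-square per degree of freedom 4.82 to 19.3). Alternatives were DESeq2 1.42.0, RLE scaling, TMM without receptor, mitochondrial and ribosomal genes, no filter, a minimum of 50, only the groups compared, a correction for transcript length (spline of 5 degrees of freedom in each library), each library left out, a mouse block, limma 3.58.1 with a random mouse effect, and, chosen after seeing the data, Ndufs5 summed with BC002163 and edgeR's legacy quasi-likelihood.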

Additional observations from a re-analysis of the deposited data

Results flagged for a closer look

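In groups of 4 libraries, 47 sets of values were checked for a library that stood far from the other 3, of which chance alone marks about 1 in 20, and 4 were marked. Ndufa9 was low in B6 Tn mouse 1, at 62.7 normalized CPM beside 68.0 to 69.0. Ndufs4 was high in B6 Tfh mouse 2, at 43.5 beside 36.7 to 37.8, and so was Ndufv2, at 77.4 beside 67.1 to 68.6. The single count of Ndufa4l2 put B6 Tfh mouse 1 at 0.0506 beside 0 in the rest. The step from Tn to Tfh differed between strains, by the interaction test, in mt-Nd1, with a log2 difference of 0.53.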

How the results depend on the processing

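For the complex I genes the medians of the strain comparisons kept their direction under every alternative run, with 31 to 34 members lower in Tfh and 31 to 34 in Tn under the settings other than length correction and left-out libraries. The strain medians moved with the transcript length correction, to −0.236 in Tfh and −0.275 in Tn. The Tfh to Tn medians changed sign with it, to 0.122 in B6 and 0.138 in TC. The TC median was −0.075 without the count filter, and it was 0.023 without TC Tfh mouse 2. The interaction median was −0.005 without the filter, and the interaction called 2 members with length correction (Ndufs4 and Ndufc2) and 1 (Ndufs4) with the replicate block (mouse) and with limma's random mouse block. The block changed 2 other single calls: Ndufa8 and Ndufs7 then passed in Tfh against Tn in TC. With each library left out in turn, the members called ranged from 18 to 23 and the medians from −0.128 to −0.064 in B6, 14 to 18 and −0.061 to 0.023 in TC, 31 to 33 and −0.371 to −0.319 for strain in Tfh, 29 to 34 and −0.408 to −0.376 for strain in Tn, and 0 to 1 and 0.028 to 0.089 for the interaction. Without B6 Tfh mouse 2 or TC Tfh mouse 2 the interaction call was Ndufs4, and without TC Tn mouse 1 it was Ndufc2. The length correction turned single Tfh to Tn differences to 0.19 (Ndufa4), 0.23 (Ndufc2) and 0.13 (Ndufs3) in B6 and to 0.05 (Ndufb10) and 0.15 (Ndufs3) in TC. Of 1879 single values under the alternatives, 1771 kept their direction and side of the threshold, 53 lost and 22 gained a call, and 5 changed sign with a call in 1 of the fits. A further 28 changed sign with no call in either fit, 8 of them with the length correction, among them Ndufs3 between the strains. After the change none was beyond 0.13 in size. Before it the widest were 0.64 for Ndufs5 (summed with BC002163), −0.2 for Ndufs7 and −0.18 for Ndufa8 (both with the length correction). All of these were Tfh against Tn in TC. The causes were not tested.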
